A study of Homo sapiens with 46 samples.

Results

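The 96 h auxin control was examined in DLD-1, a human colorectal adenocarcinoma cell line in long use that grows attached to the dish. The libraries were chosen by their labels: the 4 libraries of the untagged parental line (genotype WT) at 96 h of auxin were compared with the 4 of the same line at 0 h, 8 of the 46 libraries of the series. Auxin was dissolved in DMSO and used at 1 mM, and the labels do not say whether the 0 h wells received DMSO. The parental samples were included so that genes responding to auxin in the absence of a degron could be listed. A degron is the short tag that lets auxin trigger the breakdown of a tagged protein. The other lines carried an N-terminal auxin-inducible degron on 1 lamin, A/C in the line called LAC here, B1 in LB1 and B2 in LB2, and are compared here at 0 and 96 h of auxin. Whether the parental line carries the plant receptor that the degron needs, and whether each tagged line is 1 clone, is not given in the sources used here. The 4 parental libraries at 16 h of auxin were used for timing. A replicate was 1 well of a 6-well plate, so the p-values measure the spread between wells.

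Auxin is a plant hormone, and a degron experiment takes it to have little effect of its own in animal cells. The aryl hydrocarbon receptor is a ligand-activated transcription factor that binds many small aromatic compounds, among them indoles, and switches on cytochrome P450 genes such as CYP1A1. YAP is a coactivator that works through TEAD factors, responds to cell spreading and density, and drives CCN1, CCN2 and ANKRD1. CDX2 is the homeobox factor of intestinal epithelium, and EGR1 and FOS are immediate early genes, transcribed soon after growth factor signals.

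The 4 libraries at 0 h held from 3770140 to 11696867 counts and those at 96 h from 5603919 to 12247746. A count of 0 allowed for up to 3 counts, which is from 0.245 to 0.796 CPM (counts scaled to a library of 1000000) in these 8 libraries. These limits use library size alone, whereas all other CPM values are TMM-scaled. The shallowest library, replicate 4 at 0 h, had a TMM factor of 1.1, so its limit is lower on the TMM scale. Means are given ± SD over 4 libraries, and CPM is not corrected for gene length, so it compares samples and not genes. Epithelial markers were abundant: EPCAM, an epithelial adhesion protein, measured from 378 to 416 CPM at 0 h and from 459 to 540 at 96 h, and KRT8, a keratin of simple epithelia, from 3641 to 4683 and from 3725 to 6007. The colon markers VIL1, LGALS4 and GPA33 lay at or below 2.39 CPM in every one of the 8 libraries, and CDX1 was at 0 in 6 of the 8. The 13 markers of fibroblasts, leukocytes and endothelium summed to 4.3 to 5.24 CPM at 0 h and 2.68 to 8.68 at 96 h, and COL1A2, DCN and PDGFRA were at 0 in all 8. In a principal component analysis of the 12 parental libraries the first component (36.1% of the variance) put the 0 h libraries between -29.7 and -15, the 16 h libraries between 10.1 and 15.2 and the 96 h libraries between 9.8 and 12.6. On the second component (16.1%) replicate 2 at 96 h stood at 29.4, away from the other 96 h libraries, and replicate 2 at 0 h at -18.4. In bulk RNA, fewer cells of a kind and less RNA per cell cannot be told apart.

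At 96 h, 1671 of 21484 genes tested were called (7.78%), 847 higher (3.94%) and 824 lower (3.84%), with a call at an adjusted p under 0.05 in edgeR's quasi-likelihood test. The rises were mostly small and the larger changes mostly falls: 1122 calls (67.1%) were under 2-fold, and of the 549 calls of at least 2-fold 108 were higher and 441 lower. The median change of all genes was -0.03 on the log2 scale. No overlap between the 4 and 4 libraries was seen for 1490 of the calls, and for 3581 (16.7%) of all genes tested. The share of calls that were higher, 50.7%, rested on the scaling: it was 37.4% under RLE scaling (1676 calls), 30.9% when only library size was used (1628) and 37.7% in DESeq2 (1991). It was 63.8% without replicate 2 at 0 h and 61.2% without replicate 2 at 96 h. The number of calls was 1157 without replicate 2 at 96 h and 1748 without replicate 2 at 0 h, and it dropped to 1051 without replicate 1 at 0 h and to 1004 without replicate 4 at 0 h.

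**Figure D1:**
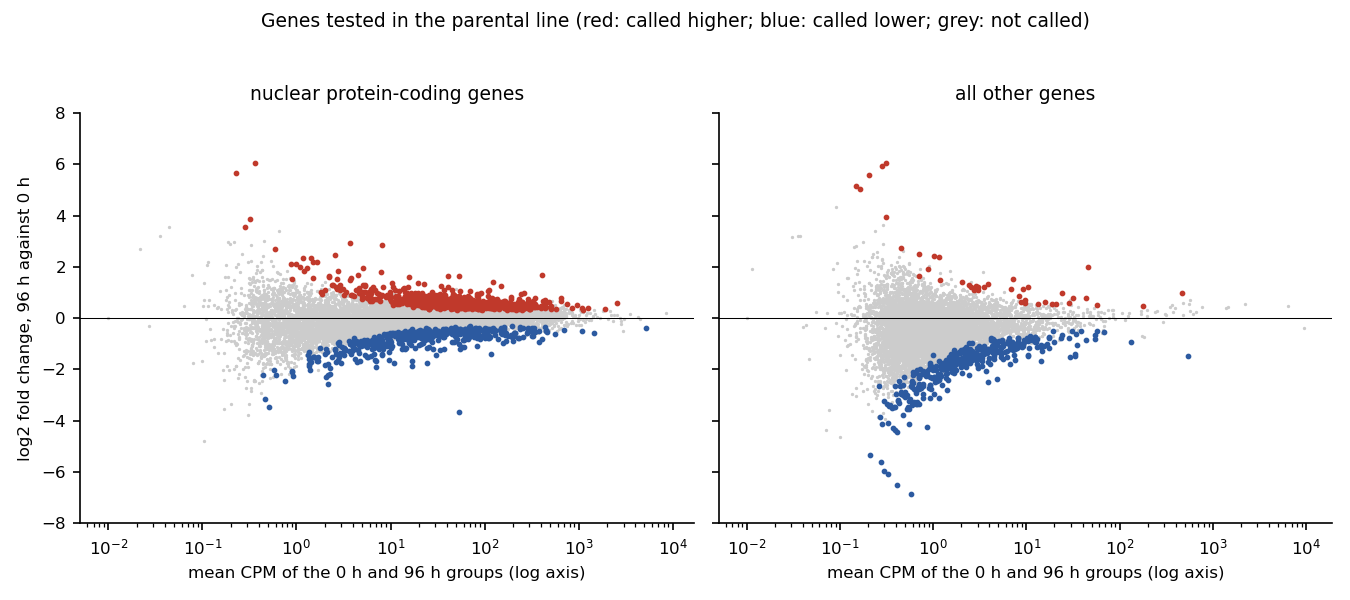
Mean CPM over the 8 parental libraries (x axis, log scale) against the log2 fold change at 96 h relative to 0 h (y axis), for nuclear protein-coding genes and for all other genes, with the called genes coloured by direction. Of the protein-coding genes 804 were called higher and 456 lower, and of all other genes 43 higher and 368 lower. Under RLE scaling the protein-coding calls were 596 higher and 626 lower, and those of the other genes 31 and 423.

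The aryl hydrocarbon receptor list had 15 tested genes and a median of 0.25 on the log2 scale (-0.03 for all genes). Of the 15, 13 were not called. The share called was 13.3%, against 7.78% of all genes tested. CYP1A1 and CYP1B1 were the 2 that rose. Both encode cytochrome P450 enzymes that oxidise polycyclic aromatic compounds and hormones, and both are classic targets of the receptor. CYP1A1 is at chromosome 15, 74719542 to 74725536 (GRCh38, minus strand). The 250 bases before its RefSeq start (GRCh38.p14, chr15:74725529-74725778, minus strand) are shown with the receptor's core motif GCGTG in capitals, searched on both strands.

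CYP1A1: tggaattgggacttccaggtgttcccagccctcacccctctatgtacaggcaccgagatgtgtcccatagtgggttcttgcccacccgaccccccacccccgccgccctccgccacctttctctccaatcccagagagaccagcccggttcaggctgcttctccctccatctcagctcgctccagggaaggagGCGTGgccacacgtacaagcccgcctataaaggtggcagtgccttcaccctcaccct

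The single match lies 57 to 53 bases before the start, and 32.2% of the 35116 RefSeq promoter windows of the same length hold at least 1. Of the 15 list members with a window, 8 held the core, so its presence does not set CYP1A1 apart from members that were not called. CYP1B1 had no window in the sequence table and none is shown.

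CYP1A1 measured 2.44, 1.82, 0.897 and 2.9 CPM in the 4 libraries at 0 h. At 96 h it measured 12.7, 15.7, 10.5 and 17.4 CPM. All 4 libraries with auxin were above all 4 without it, and the gene rose 7.17-fold (log2 fold change 2.84, SE 0.26, adjusted p = 2.38e-10). At 16 h its mean was 18.8 ± 3.25 CPM. CYP1B1 measured 40.1, 51, 43.4 and 46.9 CPM at 0 h and 98.6, 88.7, 86.7 and 101 at 96 h, again without overlap (log2 fold change 1.05, SE 0.13, adjusted p = 4.27e-07). CYP1B1 shares exon positions with an antisense gene, CYP1B1-AS1, and whether reads were counted by strand is not given in the sources used here. The 13 other members ran from -0.44 to 0.33 on the log2 scale. They include the receptor itself, AHR, at 341 ± 30.5 and 262 ± 16.9 CPM (-0.38, adjusted p = 0.236), its partner ARNT (-0.12), its repressor AHRR (0.33) and TIPARP (0.31), an ADP-ribosyltransferase that limits the receptor.

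**Figure D2:**
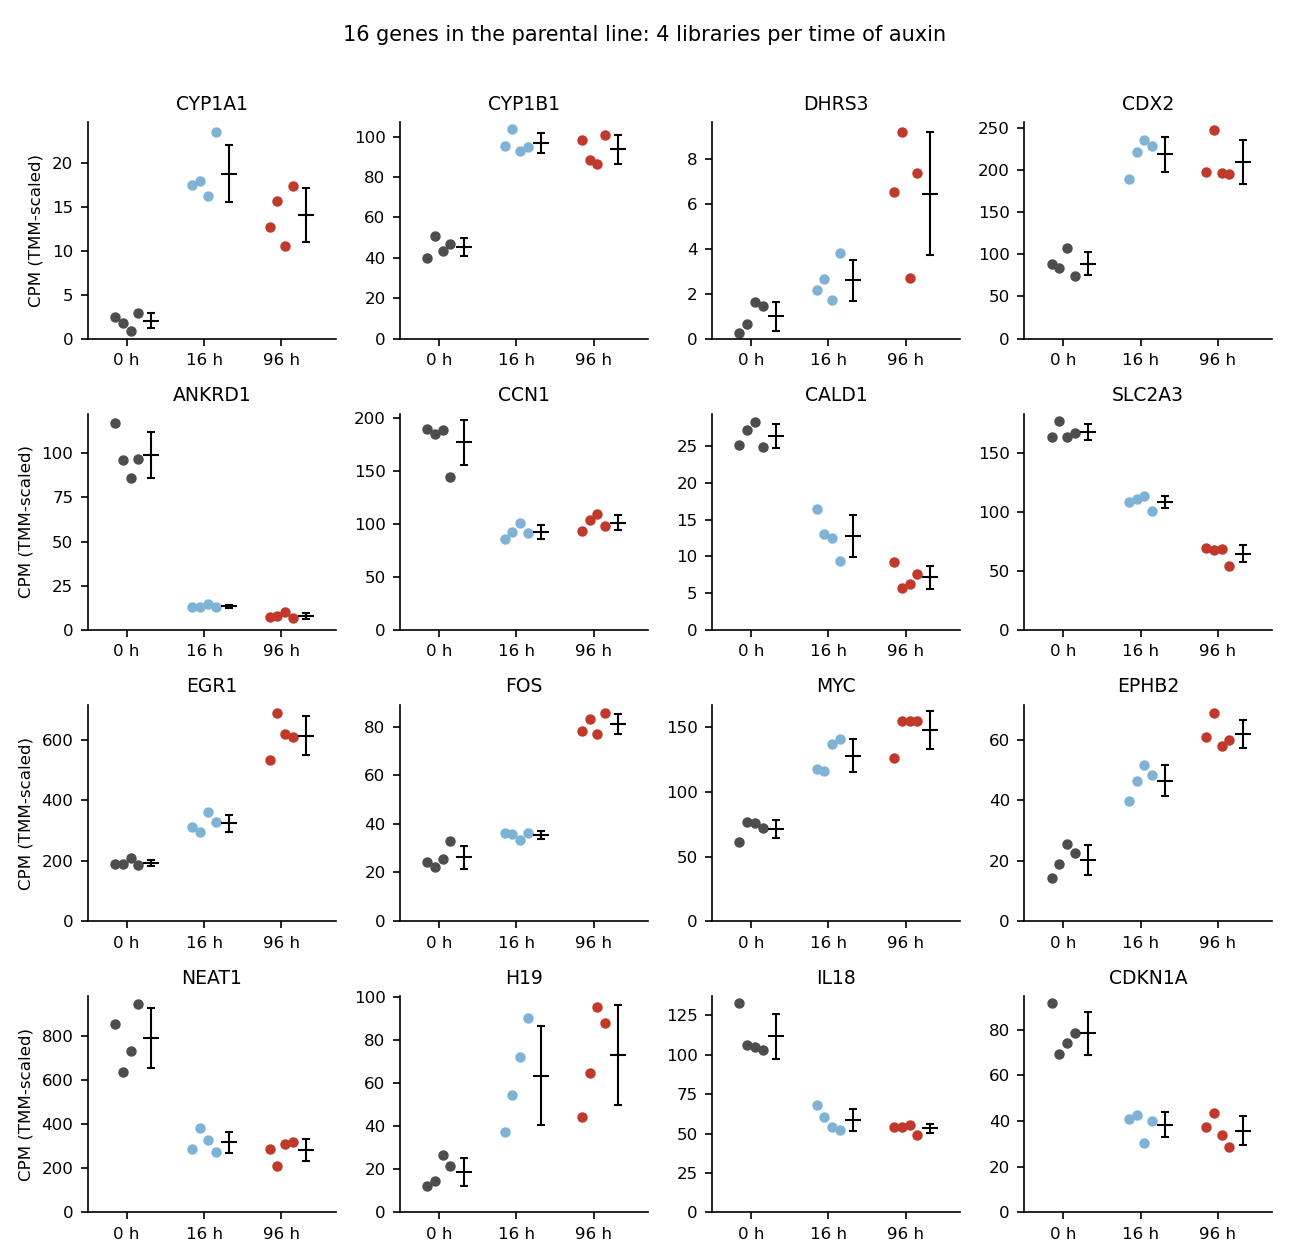
CPM (linear scale) of 16 genes in each parental library at 0, 16 and 96 h of auxin, with points for libraries and a bar for the mean ± SD of the 4 libraries. CYP1A1 and CYP1B1 were high at 16 and at 96 h, whereas FOS measured 35.4 ± 1.48 CPM at 16 h and 81 ± 4.13 at 96 h, and ANKRD1 was below 15 CPM in every library with auxin.

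Among 27 tested genes of drug conjugation and efflux, 6 rose and 1 fell (25.9% called, against 7.78% of all genes tested). Their median was 0.08, and it was -0.02 with library size only and between 0.01 and 0.17 in the other settings. ABCB1, the multidrug efflux pump P-glycoprotein, measured 12.3, 11.2, 11.7 and 8.22 CPM at 0 h and 30.5, 24.7, 27.6 and 30.3 at 96 h. It rose without overlap (log2 fold change 1.36, SE 0.21, adjusted p = 1.88e-05). ABCG2, another efflux pump, measured 8.54 ± 1.53 CPM at 0 h, 10.9 at 16 h and 18.9 ± 3.38 at 96 h (1.15 at 96 h, adjusted p = 8.22e-05). POR, the reductase that supplies electrons to microsomal P450 enzymes, rose by 0.54 on the log2 scale, ALDH3A2 by 0.45, EPHX1, an epoxide hydrolase, by 0.45, and UGT1A1, a bilirubin and drug glucuronosyltransferase, from 0.434 ± 0.202 to 1.76 ± 0.494 CPM. UGT1A1 shares exons with the other UGT1A genes, so its counts are uncertain. MGST3, a microsomal glutathione transferase, fell by 0.47 on the log2 scale. The calls of UGT1A1, POR and MGST3 were lost in 4 or more of up to 17 alternative settings. Of 25 NRF2 targets, genes of the response to oxidative stress, 1 rose and 1 fell (8.0% called, against 7.78% of all genes tested). UGDH, which makes UDP-glucuronic acid, rose by 0.46 on the log2 scale. TXNRD1, thioredoxin reductase, fell from 679.6 ± 45.9 to 445 ± 41.8 CPM.

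Of 21 tested genes of retinoid metabolism and receptors 6 rose and 1 fell (33.3% called, against 7.78% of all genes tested). Their median was 0.07 and lay between -0.03 and 0.25 over all settings. DHRS3, which reduces retinaldehyde to retinol and is itself switched on by retinoic acid, showed the largest rise among the named genes with at least 1 CPM. It measured 0.244, 0.66, 1.61 and 1.45 CPM at 0 h and 6.54, 9.18, 2.68 and 7.35 at 96 h, a range without overlap. The rise was 7.57-fold (log2 fold change 2.92, SE 0.44, adjusted p = 1.27e-05), and at 16 h the mean was 2.59 ± 0.911. RDH10, which runs the opposite oxidation of retinol, rose from 128 ± 1.04 to 203 ± 8.13 CPM (0.66, adjusted p = 0.00012). NRIP1, a nuclear receptor corepressor, rose by 0.73 and RXRA, a retinoid X receptor, by 0.57 on the log2 scale. ALDH1A3, which makes retinoic acid, rose by 0.68. DHRS9, a further retinol dehydrogenase, was at 0 in 3 of the 4 libraries at 0 h and between 0.178 and 1.06 CPM at 96 h, so no fold is given. TGM2, a transglutaminase that retinoic acid raises in many cells, fell from 5.17 ± 0.978 to 2.67 ± 0.669 CPM. The calls of ALDH1A3, DHRS9 and TGM2 were lost in 4 or more of the settings that gave a value, 13 for DHRS9 and 17 for the others.

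Of 14 tested genes of colon epithelial identity, 2 rose and 0 fell by edgeR's test (14.3% called, against 7.78% of all genes tested). By DESeq2 0 fell, and 3 of the 14 had an unadjusted p under 0.05 in edgeR. CDX2 measured 89, 84.2, 107 and 74.4 CPM at 0 h and 198, 248, 196 and 195 at 96 h. All 4 libraries with auxin were above all 4 without it (log2 fold change 1.24, SE 0.13, adjusted p = 5.02e-09), and the 16 h mean was 219 ± 20.5. CEACAM5, the carcinoembryonic antigen, rose from 0.405 ± 0.248 to 1.92 ± 0.712 CPM (2.36, SE 0.6, adjusted p = 0.00861). Its highest library at 0 h, 0.725 CPM, lay near the highest limit that 3 counts set (0.796 CPM before TMM scaling). The size of the CEACAM5 rise is therefore uncertain. CDH17, an intestinal cadherin outside the list, measured 51.3, 62.8, 73.2 and 81 CPM at 0 h and 197, 166, 177 and 182 at 96 h (1.43, adjusted p = 5.02e-09). In the goblet and secretory list 3 of 19 rose (15.8% called, against 7.78% of all genes tested). AGR2, a disulfide isomerase needed for mucin folding, rose from 352 ± 15 to 551 ± 48.8 CPM. TFF1, a trefoil peptide, rose from 4.17 ± 0.824 to 8.13 ± 2.18, and REG4, a secreted lectin, from 0.529 ± 0.404 to 2.45 ± 0.637. The list median was 0.5, between 0.37 and 0.67 over all settings. REG4 and TFF1 were each lost in 4 or more settings, and REG4 at 0 h lay on average below the highest limit that 3 counts set. Among 16 enterocyte genes 12.5% were called, against 7.78% of all genes tested. SLC26A2, a sulfate transporter, rose by 0.58 and EZR, the microvillus linker ezrin, fell by 0.53 on the log2 scale. The enterocyte median was -0.31 (-0.42 to 0.02 over all settings), with 11 of the 16 negative, and the summed level of those 16 ran from 958 to 982 CPM at 0 h and from 799.7 to 834 at 96 h. The median of the colon identity list was 0.04 (-0.08 to 0.11 over all settings), with 8 of the 14 positive and 6 negative.

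WNT targets rose in 5 of 24 cases and fell in 0 by edgeR's test (20.8% called, against 7.78% of all genes tested). By DESeq2 1 fell, and 11 of the 24 had an unadjusted p under 0.05 in edgeR. The list median was 0.34 (0.24 to 0.42 over all settings). EPHB2, a receptor that positions crypt cells, measured 14.1, 19, 25.5 and 22.5 CPM at 0 h and 61, 68.8, 58.1 and 60 at 96 h. The groups lay far apart (log2 fold change 1.63, SE 0.2, adjusted p = 1.22e-07). MYC, the growth-promoting transcription factor, measured 61, 76.4, 75.9 and 72.3 CPM at 0 h and 126, 155, 155 and 155 at 96 h (1.05, SE 0.12, adjusted p = 3.79e-08). LEF1, a partner of beta-catenin, rose by 0.67, ZNRF3, which removes WNT receptors, by 0.56, and PROX1, a homeobox factor, by 1.15, the last lost in 4 or more settings. In the circadian clock 3 of 20 genes rose (15.0% called, against 7.78% of all genes tested). PER2, a repressor of the clock, rose from 20 ± 2.35 to 48.5 ± 3.93 CPM (1.27, adjusted p = 5.02e-09). CRY2, its partner, rose by 0.66, and HLF, an output factor, from 0.717 ± 0.351 to 2.28 ± 0.688 CPM. The HLF call was lost in 4 or more settings. Its mean at 0 h lay near the highest limit that 3 counts set, 0.796 CPM before TMM scaling. The hours of the day at which wells were harvested are not given in the sources used here.

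Immediate early genes moved in both directions: 5 of 20 rose and 2 fell (35.0% called, against 7.78% of all genes tested). Their median was 0.31 (0.21 to 0.42 over all settings). EGR1, a zinc finger factor, is at chromosome 5, 138465479 to 138469303 (GRCh38, plus strand). Its 250 bases before the RefSeq start (GRCh38.p14, chr5:138465229-138465478, plus strand) hold 2 CArG boxes, the site of serum response factor, in capitals.

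EGR1: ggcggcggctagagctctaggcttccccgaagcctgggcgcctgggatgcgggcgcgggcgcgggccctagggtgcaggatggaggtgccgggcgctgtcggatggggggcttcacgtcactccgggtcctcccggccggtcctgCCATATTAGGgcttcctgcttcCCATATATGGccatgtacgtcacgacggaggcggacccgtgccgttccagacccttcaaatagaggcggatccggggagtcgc

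The matches lie 105 to 96 and 83 to 74 bases before the start. CArG boxes were found in 1.16% of the RefSeq windows, and in 2 of 17 windows of the immediate early list, those of EGR1 and EGR2.

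EGR1 measured 189, 189, 209 and 186 CPM at 0 h, 310.3, 296, 362 and 329 at 16 h, and 534, 691, 620.1 and 611 at 96 h. The 3 groups did not overlap, and both steps were called (0.74 at 16 h, adjusted p = 0.00235, and a further 0.92 from 16 to 96 h, adjusted p = 0.000801). Against 0 h the rise at 96 h was 3.17-fold (1.67, SE 0.16, adjusted p = 8.01e-10). FOS, a subunit of AP-1, measured 24.4, 22.2, 25.6 and 33.1 CPM at 0 h and 78, 83.1, 77 and 85.7 at 96 h (1.64, SE 0.17, adjusted p = 5.02e-09), whereas at 16 h it differed by 0.44 (adjusted p = 0.0911). EGR3 rose from 3.46 ± 1.7 to 12.2 ± 3.51 CPM, FOSB from 10.3 ± 3.18 to 20 ± 4.27, and NR4A1, an orphan nuclear receptor, from 37.9 ± 3.83 to 59.2 ± 15. MAFF, a small MAF factor, fell by 0.75 and KLF6, a zinc finger factor, by 0.43 on the log2 scale. Of 16 genes that MAPK signalling induces as feedback, 1 rose and 3 fell (25.0% called, against 7.78% of all genes tested). SPRY1, an inhibitor of receptor signalling, rose by 0.44. The phosphatases that fell were DUSP4, from 32.6 ± 3.54 to 18.9 ± 2.66 CPM, DUSP5, from 187 ± 26 to 121 ± 12.8, and DUSP6, from 339.7 ± 15.7 to 255 ± 12.5. KLF6, SPRY1 and DUSP6 were lost in 4 or more settings, and FOSB, MAFF and DUSP5 in 1 to 3.

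Of 21 tested YAP targets 6 fell (3 to 10 over all settings) and 2 rose. The share called was 38.1%, against 7.78% of all genes tested, and the median -0.32 (-0.41 to -0.25). ANKRD1, a nuclear ankyrin repeat protein, showed the largest fall of all named genes. It is at chromosome 10, 90912096 to 90921087 (GRCh38, minus strand), and CCN2, a matricellular protein that was not called, at chromosome 6, 131948176 to 131951372 (minus strand). The windows of both are shown with the TEAD core GGAATG in capitals, searched on both strands (GRCh38.p14, both on the minus strand, chr10:90921088-90921337 and chr6:131951373-131951622).

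ANKRD1: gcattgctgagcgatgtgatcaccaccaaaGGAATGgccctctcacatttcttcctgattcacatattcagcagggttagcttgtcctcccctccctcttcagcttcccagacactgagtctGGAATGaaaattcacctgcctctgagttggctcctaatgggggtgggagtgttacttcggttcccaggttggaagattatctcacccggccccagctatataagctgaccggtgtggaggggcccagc
CCN2: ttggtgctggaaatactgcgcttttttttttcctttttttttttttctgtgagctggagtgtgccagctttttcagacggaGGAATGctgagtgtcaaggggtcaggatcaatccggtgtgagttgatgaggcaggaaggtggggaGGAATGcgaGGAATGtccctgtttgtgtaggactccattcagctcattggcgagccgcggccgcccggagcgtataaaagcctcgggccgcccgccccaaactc

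ANKRD1 held 2 cores, 220 to 215 and 128 to 123 bases before the start, and CCN2 held 3, at 169 to 164, 104 to 99 and 95 to 90. The core was in 11.9% of all windows and in 9 of 18 windows of the YAP list.

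ANKRD1 measured 117, 96.1, 85.9 and 96.7 CPM at 0 h, 12.7, 13, 14.7 and 12.7 at 16 h, and 7.27, 7.58, 10.3 and 6.71 at 96 h. The 3 groups did not overlap, and the fall at 96 h was 12.6-fold (log2 fold change -3.66, SE 0.19, adjusted p = 1.54e-19). CCN1, a matricellular protein, measured 190, 185, 189 and 145 CPM at 0 h and 93.8, 104, 109.5 and 98.6 at 96 h, a smaller fall without overlap (-0.81, SE 0.16, adjusted p = 0.00103). CCN2 measured 34.6, 34.2, 35 and 29 CPM at 0 h and 29.9, 27.2, 23.7 and 25.8 at 96 h. Its groups overlapped and it was not called (-0.32, adjusted p = 0.242). AMOTL2, an angiomotin that holds YAP in the cytoplasm, fell from 406 ± 30.7 to 252 ± 35.3 CPM (-0.69, adjusted p = 0.00162). GADD45B, a stress protein, fell by 0.61, CRIM1, a membrane BMP antagonist, by 0.4, and F3, tissue factor, by 0.47 on the log2 scale. NUAK2, a kinase, rose from 18.6 ± 1.32 to 33.8 ± 5.41 CPM (0.85, adjusted p = 0.0008) and IGFBP3, an IGF binding protein, from 1.24 ± 0.474 to 2.52 ± 0.382. The 13 members that were not called, CCN2 among them, ran from -1.26 (AMOTL1) to 0.2 (FJX1). Calls of GADD45B, CRIM1, F3 and IGFBP3 were lost in 4 or more settings.

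Among 23 SRF targets and contractile actin genes 3 fell and 1 rose (17.4% called, against 7.78% of all genes tested). Their median was -0.28 (-0.37 to -0.21 over all settings). The count of falls depended on the setting: 8 fell and 0 rose in DESeq2, under RLE scaling, when only library size was used and when protein-coding genes were fitted alone, 10 fell with the compared groups alone, and 1 fell with no low-count filter. CALD1, caldesmon, which binds actin and myosin, measured 25.2, 27.2, 28.3 and 24.9 CPM at 0 h and 9.23, 5.68, 6.24 and 7.54 at 96 h. The groups were far apart (-1.86, SE 0.2, adjusted p = 5.09e-09), and the level at 96 h was also below that at 16 h (-0.83, adjusted p = 0.0462). CNN3, a calponin, fell by 0.5 and ACTB, beta-actin, from 5868 ± 252 to 4465 ± 543 CPM (-0.39), whereas SRF itself rose by 0.52. Of 24 integrin and laminin genes 4 fell and 0 rose by edgeR's test (16.7% called, against 7.78% of all genes tested). In edgeR 9 of the 24 had an unadjusted p under 0.05, and 0 rose by DESeq2 and in every other alternative run. ITGA1, a collagen-binding integrin chain, fell by 0.79, COL17A1, a hemidesmosome collagen, by 0.63, and ITGA3, a laminin-binding integrin chain, by 0.51. The list median was -0.23, and the falls numbered from 1 to 9 over all settings. AHNAK, a scaffold protein, and ANXA2, a membrane-binding annexin, were named as genes that lost the most CPM. AHNAK fell from 1747 ± 242 to 1186 ± 119 CPM and ANXA2 from 1272 ± 95.5 to 902 ± 65.6. Apart from CALD1, CNN3 and ITGA1, the calls of this paragraph were lost in 4 or more settings.

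Nuclear envelope genes are of interest because the series was built around lamins. In the parental line the 3 lamin genes were not called. LMNA measured 738 ± 111 CPM at 0 h and 569 ± 127 at 96 h (-0.37, adjusted p = 0.396), LMNB1 147 ± 8.92 and 183 ± 15.4 (0.31, adjusted p = 0.185), and LMNB2 283 ± 32.5 and 414 ± 45.6 (0.55, adjusted p = 0.09). LMNB1 and LMNB2 did not overlap between groups, and LMNA did. Of the 26 genes of the list 2 rose and 2 fell (1 to 8 and 1 to 5 over all settings). The share called was 15.4%, against 7.78% of all genes tested. SYNE3, nesprin-3, which links the nuclear envelope to intermediate filaments through plectin, measured 16.3, 21, 15.4 and 14 CPM at 0 h and 7.19, 4.09, 3.92 and 4.41 at 96 h (-1.75, SE 0.24, adjusted p = 1.78e-06). SYNE1, nesprin-1, fell by 0.85. TMEM43, an inner membrane protein, rose by 0.59 and ICMT, the methyltransferase of prenylated proteins, by 0.55, the last lost in 4 or more settings. Among 14 keratins and other intermediate filament genes only KRT81 was called (7.14%, against 7.78% of all genes tested). It fell from 10.8 ± 2.61 to 3.37 ± 1.27 CPM.

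**Figure D3:**
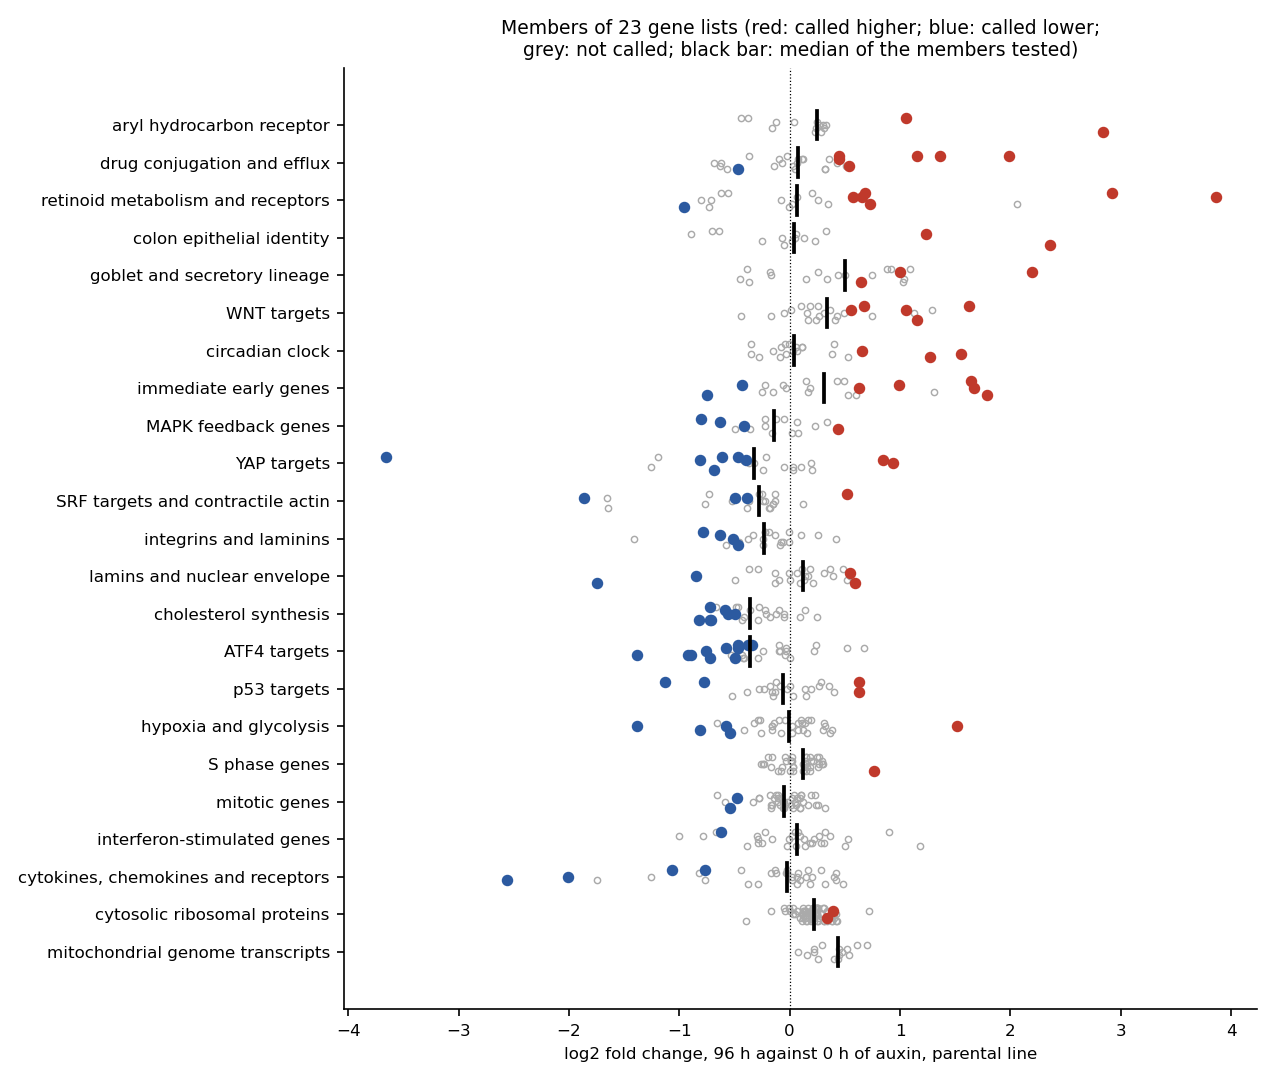
Log2 fold change at 96 h against 0 h in the parental line of each tested member of 23 gene lists, with members called higher in red, called lower in blue, not called in grey and the list median as a black bar. Cholesterol synthesis (7 of 25) and ATF4 targets (11 of 30) hold members called lower, and WNT targets (5 of 24) members called higher. Of all genes tested, 3.84% were called lower and 3.94% higher.

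In cholesterol synthesis 7 of 25 genes fell (4 to 13 over all settings) and 0 rose by edgeR's test. The share called was 28.0%, against 7.78% of all genes tested, and the median -0.36 (-0.45 to -0.28 over all settings). In edgeR 11 of the 25 had an unadjusted p under 0.05, and 0 rose by DESeq2 and in every other alternative run. ACAT2, an acetyl-CoA acetyltransferase, measured 86.5, 76.5, 90.6 and 87.2 CPM at 0 h and 51.8, 45.3, 50.1 and 45.1 at 96 h. All 4 libraries with auxin were lower (-0.82, SE 0.13, adjusted p = 4.84e-05). HMGCS1, which makes HMG-CoA, fell by 0.72 and HSD17B7, a sterol reductase, by 0.71 on the log2 scale. FDPS (-0.59), FDFT1 (-0.56) and MSMO1 (-0.5), further enzymes of the same synthesis, fell as well. In fatty acid synthesis 3 of 20 rose and 1 fell (20.0% called, against 7.78% of all genes tested). ELOVL6, an elongase, rose by 0.76, ACSL5, an acyl-CoA synthetase, by 0.64, GPAM, which starts triglyceride synthesis, by 0.59, and ACSS2, which makes acetyl-CoA from acetate, fell from 77.4 ± 17.5 to 42.5 ± 5.39 CPM.

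ATF4 targets, genes for amino acid supply that the stress factor ATF4 turns on, fell in 11 of 30 cases and rose in 0 by edgeR's test. Of these targets 36.7% were called, against 7.78% of all genes tested. Their median was -0.36 (-0.47 to -0.29 over all settings), 16 of the 30 had an unadjusted p under 0.05, and 0 rose by DESeq2 and at most 2 in any alternative. ASNS, asparagine synthetase, measured 13.8, 11.6, 11.1 and 9.91 CPM at 0 h and 3.84, 4.39, 3.92 and 5.7 at 96 h (-1.38, SE 0.22, adjusted p = 3.87e-05). CHAC1, which degrades glutathione, fell by 0.92, DDIT4, an inhibitor of mTORC1, by 0.89 and PCK2, mitochondrial PEP carboxykinase, by 0.76. The tRNA synthetases CARS1 (-0.72), GARS1 (-0.58) and SARS1 (-0.47), the serine enzymes PSAT1 (-0.5) and PSPH (-0.47), MTHFD2 of mitochondrial folate metabolism (-0.38) and ATF4 itself (-0.34) made up the rest. Of 34 genes of hypoxia and glycolysis 4 fell and 1 rose (2 to 7 and 0 to 4 over all settings). The share called was 14.7%, against 7.78% of all genes tested. SLC2A3, the glucose transporter GLUT3, measured 163, 177, 163 and 167 CPM at 0 h, had a mean of 108 ± 5.15 at 16 h and measured 69.1, 67.2, 68.1 and 53.7 at 96 h (-1.38, SE 0.17, adjusted p = 1.33e-07). SLC16A3, a lactate exporter, fell by 0.81, BNIP3L, a mitophagy receptor, by 0.58, and ENO2, an enolase, by 0.54, while CA12, a carbonic anhydrase, rose from 0.453 ± 0.2 to 1.35 ± 0.623 CPM. The calls of CA12 and BNIP3L were lost in 4 or more settings.

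CDKN1A, the cyclin-dependent kinase inhibitor p21, measured 91.5, 69.5, 74.3 and 78.5 CPM at 0 h and 37.2, 43.6, 33.7 and 28.8 at 96 h. It fell without overlap (-1.13, SE 0.18, adjusted p = 2.66e-05). DLD-1 cells are known to carry mutant p53, and of 24 p53 targets 2 fell, CDKN1A and DDB2, a DNA damage sensor (-0.78), and 2 rose, TIGAR (0.63), a phosphatase of sugar metabolism, and TRIAP1 (0.63), a mitochondrial survival protein. Of the 24 targets 16.7% were called, against 7.78% of all genes tested. Of 41 S phase genes 1 rose (2.44%, against 3.94% of all genes tested), E2F2, an E2F factor, by 0.76. Of 42 mitotic genes 2 fell (4.76%, against 3.84% of all genes), CENPE, a kinetochore motor, by 0.54 and CDC25C, which activates CDK1, by 0.48. Of 78 cytosolic ribosomal protein genes 2 rose (2.56%, against 3.94% of all genes tested), among them RPL4 by 0.39. The list median was 0.22 (0.12 to 0.34 over all settings), and 73 genes had a positive value. Among the most abundant genes called, HSPA8, the constitutive HSP70 chaperone, rose from 2002 ± 162 to 3061 ± 213 CPM, EIF4G2, a translation factor, from 1681 ± 126 to 2139.9 ± 87, and SLC12A2, a sodium-potassium-chloride cotransporter, from 475 ± 52.8 to 819 ± 54.1. The calls of TIGAR, CDC25C and EIF4G2 were lost in 4 or more settings.

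Of 33 cytokine, chemokine and receptor genes 4 fell and 0 rose by edgeR's test. By DESeq2 0 rose, in any alternative at most 2, and 8 of the 33 had an unadjusted p under 0.05 in edgeR. IL18, an epithelial cytokine of the IL-1 family, measured 133, 106, 105 and 103 CPM at 0 h and 54.3, 54, 55.5 and 49.3 at 96 h (-1.07, SE 0.14, adjusted p = 3.97e-07). IL7R, a cytokine receptor chain, fell from 3.76 ± 1.16 to 0.605 ± 0.304 CPM, IL32 from 2.19 ± 0.857 to 0.579 ± 0.473, and CX3CL1, a membrane-bound chemokine, from 10.1 ± 0.999 to 5.77 ± 1.87. TNFRSF1B, the second receptor for TNF and not a member of the list, rose from 2.06 ± 0.826 to 8.03 ± 1.47 CPM (1.95, adjusted p = 0.00212). CD14, a leukocyte marker, rose from 1.44 ± 0.537 to 3.31 ± 1.61 CPM with overlapping groups and was the only 1 of 4 tested fibroblast and leukocyte markers to be called. Of 32 interferon-stimulated genes 1 fell, IRF7 (-0.62), and 0 rose by edgeR's test (3.12% called, against 7.78% of all genes tested). In edgeR 5 of the 32 had an unadjusted p under 0.05. By DESeq2 0 rose, and in any alternative at most 2. In the TGF-beta and BMP list 2 of 19 rose and 2 fell (21.1% called, against 7.78% of all genes tested). SMAD6, an inhibitor of BMP signalling, rose by 1.3 and BAMBI, a decoy receptor, by 0.62, while LTBP2, a matrix protein, fell by 0.93. The calls of CD14, CX3CL1, IRF7 and LTBP2 were lost in 4 or more settings.

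The falls of at least 2-fold were mostly in genes outside the protein-coding class. Of 7763 tested genes that were not nuclear protein-coding genes, 368 fell (319 of them at least 2-fold) and 43 rose, with a median of -0.43, against 456 falls and 804 rises among 13721 protein-coding genes, with a median of 0.07. Antisense RNAs fell in 97 of 2023 cases (4.79%) and rose in 7 (0.346%). LincRNAs fell in 60 of 1247 (4.81%) and rose in 12 (0.962%). Processed pseudogenes fell in 57 of 1455 (3.92%) and rose in 2 (0.137%). Of all genes tested, 3.84% fell and 3.94% rose. Antisense, lincRNA and processed pseudogene counts together made up 1.38 to 1.69% of all counts in the libraries at 0 h, 1.06 to 1.15% at 16 h and 1.12 to 1.26% at 96 h. Every parental 0 h library was thus above every parental library with auxin, and the part of this difference in the single-gene calls was not tested. The same classes made up 1.07 to 1.33% in the LAC line, 1.26 to 1.34% in LB1 and 1.16 to 1.41% in LB2 at 0 h. At 16 h the ranges were 0.944 to 1.15%, 1.09 to 1.2% and 0.944 to 1.25% in the same order. At 96 h they were 1.21 to 1.36%, 1.42 to 1.88% and 1.28 to 1.52%, so the lower share at 96 h was seen in the parental line alone. The excess of rises among protein-coding genes rested on the scaling: they numbered 596 higher and 626 lower under RLE scaling, 473 and 696 when counts were scaled by library size alone, 723 and 748 in DESeq2, and 680 and 676 when protein-coding genes were fitted alone, with medians of 0, -0.03, 0 and 0. Outside the class the falls outnumbered the rises in the first 3 of these settings too (423 to 31, 429 to 30 and 492 to 28). The falls outside the protein-coding class numbered 202 without replicate 1 at 0 h, 216 without replicate 4 at 0 h and 177 without replicate 2 at 96 h. The protein-coding rises numbered from 457 (without replicate 4 at 0 h) to 1063 (without replicate 2 at 0 h), and the falls from 225 (without replicate 1 at 0 h) to 348 (without replicate 1 at 96 h).

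**Figure D4:**
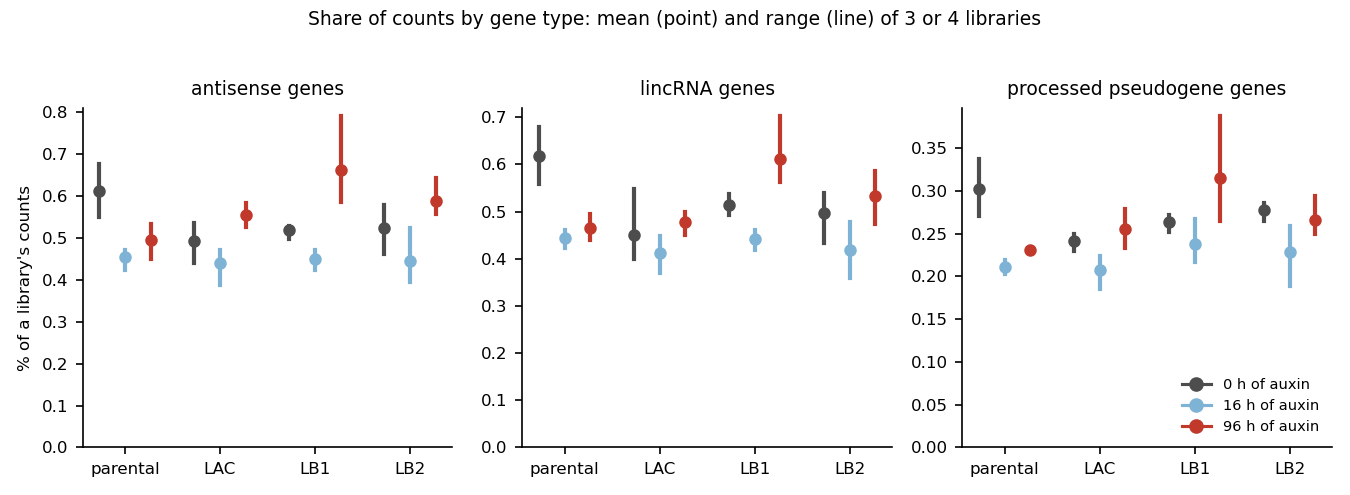
Share of all counts in antisense RNA, lincRNA and processed pseudogenes in the 12 groups of the series, with the mean and the range of the libraries of each group. The combined share was 1.53% ± 0.129 in the parental line at 0 h and 1.19% ± 0.055 at 96 h.

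NEAT1, the lincRNA that builds nuclear paraspeckles, measured 852, 635, 729 and 942 CPM at 0 h and 287, 208, 309.8 and 318 at 96 h. It fell 2.81-fold (-1.49, SE 0.17, adjusted p = 3.01e-08), and at 16 h its mean was 319 ± 47.3. SAMD4A-AS1, antisense by its name but typed as a lincRNA, measured 7.19, 8.34, 6.1 and 11.1 CPM at 0 h. At 96 h it measured 1.96, 1.4, 0.713 and 1.93 (-2.36, SE 0.35, adjusted p = 1.27e-05). The antisense RNA IGF2BP2-AS1 fell by 2.49 on the log2 scale. Pseudogenes made up 5 of the 10 largest falls named: HERC2P2, ZNF75CP, DNAJB6P7, ARL4AP4 and ENPP7P12, each at or below 0.502 CPM on average at 96 h. Their counts can be shared with near-identical parent genes and are uncertain. H19, an imprinted noncoding RNA that is the host of a microRNA and is typed as a processed transcript, went the other way. It measured 12.4, 14.4, 26.7 and 21.5 CPM at 0 h and 44.2, 64.8, 95.4 and 87.9 at 96 h (1.99, SE 0.28, adjusted p = 3.04e-06). The remaining large rises were PTCHD1, a patched-domain membrane protein (0.736 ± 0.474 to 4.46 ± 1.69 CPM), DSG4, a desmosomal cadherin (0.462 ± 0.342 to 2.38 ± 1.34), and GJB6, connexin 30 (0.508 ± 0.367 to 2.77 ± 1.32). At 0 h all 3 lay on average near or below the highest limit that 3 counts set, 0.796 CPM before TMM scaling.

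At 16 h 1935 genes (9.01%) were called against the same 0 h libraries. The direct test of 96 h against 16 h called 57 genes (0.265%), 34 higher and 23 lower, and 1613 genes had an unadjusted p under 0.05. Genes of the mitochondrial genome made up 14 of the 34 higher calls. In the list of 15 such genes the median change was -1.09 at 16 h and 0.44 at 96 h, with none called at 96 h by edgeR's test, 3 of the 15 at an unadjusted p under 0.05, 0 called by DESeq2 and at most 4 rising in any alternative. The summed level of the list ran from 9351 to 14113 CPM at 0 h and from 7482 to 25166 at 96 h, a wide spread among the wells. Among the other genes called, 3 are named after their values were seen. LCN2, the iron-binding protein lipocalin 2, measured 4.01 CPM on average at 0 h, 1.25 at 16 h and 7.91 at 96 h. S100P, a calcium-binding protein of carcinomas, measured 57.2, 28.2 and 84.2 CPM. TNC, the matrix protein tenascin-C, stood at 37, 39.4 and 11.4 CPM. Beside EGR1, FOS, EGR3, FOSB and ABCG2, the genes named above that differed between 16 and 96 h were CALD1, SLC2A3, ACSS2, HSD17B7 and CARS1, all lower at 96 h.

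The tagged lines had their own 0 h libraries and received the same auxin. At 96 h LAC had 3304 calls (15.4%, with 6.74% higher and 8.64% lower), LB1 682 (3.17%, with 1.05% and 2.12%) and LB2 762 (3.55%, with 1.95% and 1.6%). Of the 847 parental rises, LAC also called 258 higher (30.5% of the parental calls, 17.8% of its own), LB1 78 (9.21% and 34.5%) and LB2 189 (22.3% and 45.1%). Of the 824 parental falls, LAC called 175 lower (21.2% and 9.42%), LB1 153 (18.6% and 33.6%) and LB2 104 (12.6% and 30.3%). Genes called in all 4 lines numbered 42 higher and 49 lower. Of the 368 parental falls outside the protein-coding class, 15 were called lower in LAC, 5 in LB1 and 5 in LB2. Of all 7763 tested genes outside the class, 163 were called lower in LAC, 12 in LB1 and 43 in LB2. Lamin loss and auxin act together in these lines and cannot be told apart within them.

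The genes called higher in all 4 lines with the largest smallest change were FOXN4, DHRS3, CEACAM5, HLF and CDH17. CEACAM5 was near 0 before auxin, with 0 h means of 0.405 CPM in the parental line, 0.0859 in LAC, 0.286 in LB1 and 0.108 in LB2. In the order parental, LAC, LB1 and LB2, DHRS3 rose by 2.92, 4.57, 4.53 and 3.07 and CDH17 by 1.43, 2.03, 1.72 and 1.78 on the log2 scale. FOXN4, a forkhead factor, was at 0 in all 4 parental libraries at 0 h and between 0.357 and 0.698 CPM at 96 h. Before TMM scaling, the limits that 3 counts set ran from 0.2565 to 0.7957 CPM at 0 h and from 0.2449 to 0.5353 at 96 h. The size of the FOXN4 rise is therefore uncertain. The genes called lower in all 4 were led by ANKRD1 (-3.66, -2.51, -2.81 and -2.48 in the same order), ANO2, a chloride channel (-2.2, -2.97, -3.37 and -2.33), CALD1 (-1.86, -1.8, -2.25 and -1.5), SLC2A3 (-1.38, -1.46, -1.61 and -1.45) and STX11, a syntaxin of membrane traffic (-1.65, -1.27, -2.16 and -1.32). CAV1, caveolin-1 of membrane caveolae, changed by -1.22, -1.12, -1.51 and -1.26 in the same set and is named after its values were seen.

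**Figure D5:**
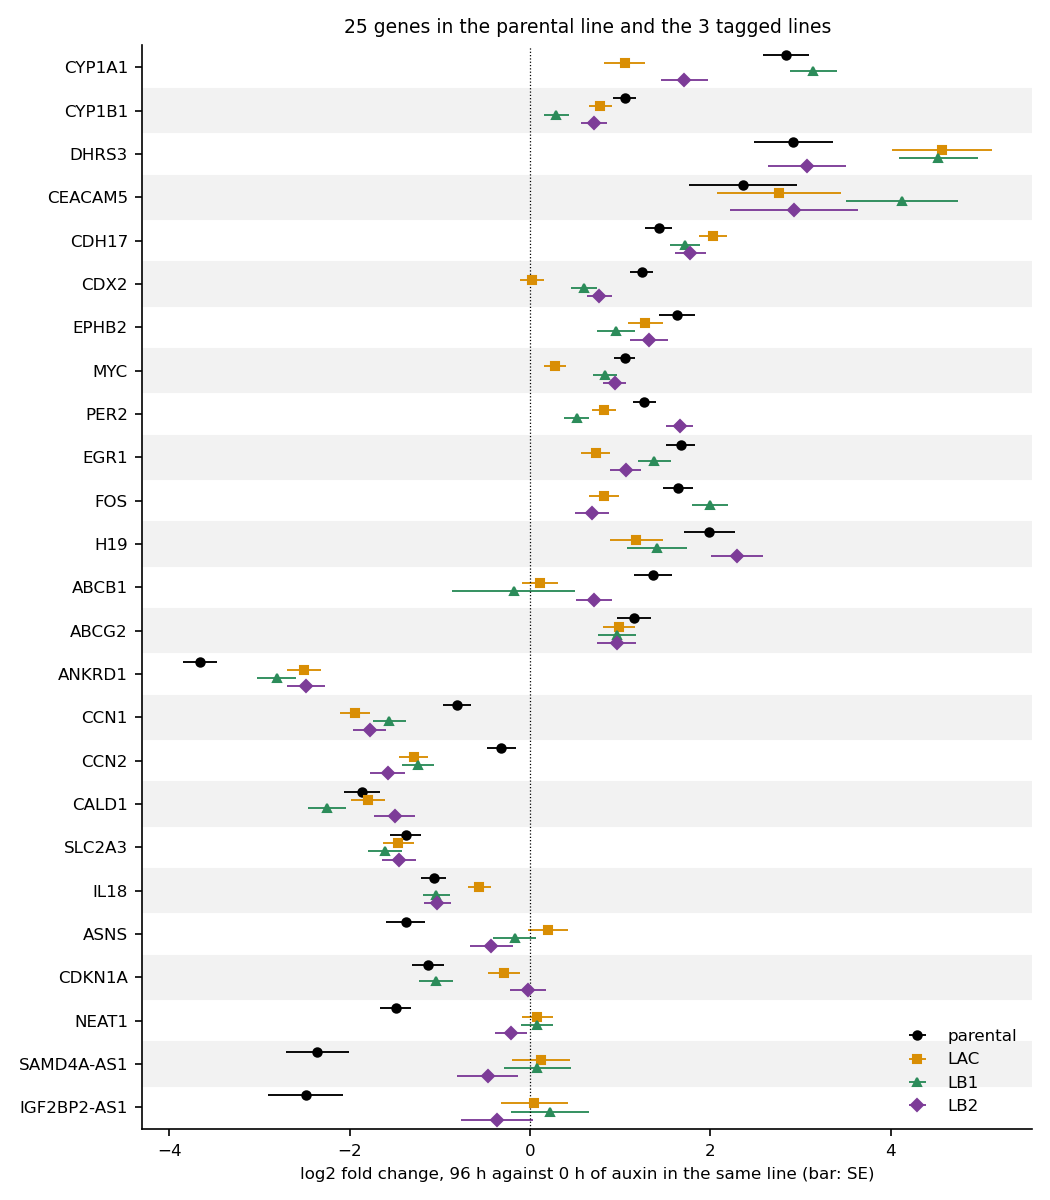
Log2 fold change ± SE at 96 h against each line's own 0 h libraries for 25 genes in the parental, LAC, LB1 and LB2 lines. ANKRD1, CALD1 and SLC2A3 lie at or below -1.38 in all 4 lines, and NEAT1 lies between -0.21 and 0.08 in the 3 tagged lines against -1.49 in the parental line.

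A test of the difference between a tagged line's change and the parental change called 1589 genes for LAC (7.4%), 224 for LB1 (1.04%) and 79 for LB2 (0.368%). Without replicate 2 at 96 h of the parental line these counts were 724, 61 and 2. CYP1A1 rose by 3.14 in LB1, 1.71 in LB2 and 1.05 in LAC, where the difference from the parental 2.84 was called (-1.79, adjusted p = 0.00233). CDX2 changed by 0.02 in LAC (difference -1.22, adjusted p = 7.48e-05), 0.6 in LB1 and 0.77 in LB2. EGR1 rose by 0.73 in LAC (difference -0.94, adjusted p = 0.00877), 1.38 in LB1 and 1.06 in LB2. CCN2, not called in the parental line, fell by 1.58 in LB2, 1.29 in LAC and 1.24 in LB1. All 3 differences were called (-1.26, -0.98 and -0.93, with adjusted p of 0.0179, 0.00794 and 0.0452). CCN1 fell by 1.94, 1.56 and 1.78, against 0.81 in the parental line, and the difference was called in LAC and LB2. NEAT1 differed in all 3 lines (1.57, 1.57 and 1.29, with adjusted p of 8.48e-05, 0.000616 and 0.0179). SAMD4A-AS1 changed by -0.47 in LB2, 0.12 in LAC and 0.08 in LB1, and the difference was called in LAC and LB1.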

How the data were processed

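Per the file headers and the labels, the deposited values are raw gene counts from the authors, made with featureCounts 1.6.4 in the software environment of nf-core/rnaseq 1.4.2. The submitters' processing notes list STAR 2.7.10a, SAMtools 1.10, deepTools 3.4.5 and DESeq2 1.40.2, and GRCh38. Per the labels' protocols, total RNA was depleted of ribosomal RNA and sequenced in pairs with a stranded kit. The strand setting, the treatment of reads with several positions and the annotation release are not given in the sources used here, so overlapping genes, antisense RNAs and near-identical copies are uncertain. All 46 columns were matched to a library. A gene broken over 3 lines was left out, which left 62756 genes, 42341 with a symbol (67.5%). Gene types came from GENCODE release 29, which held 92.9% of the genes.

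The counts were tested with edgeR 4.0.16 (R 4.3.3, quasi-likelihood, two-sided): 1 fit over 46 libraries and 12 groups, TMM scaling, filterByExpr by group (21484 genes), Benjamini-Hochberg adjustment and calls at an adjusted p under 0.05. The test was checked on simulated counts. Lists (29) are described by counts and medians. Named were the 10 largest rises and falls with a symbol, at least 1 CPM and no overlap, the 5 that gained and lost most CPM, up to 4 called list members a direction, all members of 2 lists, the lamin genes and the 5 largest changes shared by all 4 lines. Further called list members are given with them; a few genes are not reported here. The members and lists were chosen with earlier results of these data known. The 17 alternative settings were other scaling (RLE, library size only), no filter, DESeq2 1.42.0, limma 3.58.1 (voom with quality weights), the compared groups alone, a replicate block, no library under 5000000 counts, each replicate left out, and protein-coding genes only; calls of at least 2-fold were also counted. The protein-coding setting and the leave-outs of other comparisons were chosen after seeing the data. So was the CArG box search. The 8 libraries ranged from 3770140 to 12247746 counts; limits from 3 counts cover counting error only.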

Additional observations from a re-analysis of the deposited data

Results flagged for a closer look

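Of 306 groups of 4 parental libraries examined, 1 for each named gene or share of counts at each time, 33 (10.8%) had a library farther from the other 3 than Dixon's 95% critical value allows. Chance gives about 1 in 20. Replicate 1 at 0 h stood apart in CPM for IL18 (133). Replicate 2 at 0 h stood apart in CPM for EIF4G2 (1869), TIGAR (35.5), HLF (1.24), NT5E (468) and MYOF (609). Replicate 3 at 0 h stood apart in CPM for EGR1 (209) and DHRS9 (0.179). Replicate 4 at 0 h stood apart in CPM for ARL4AP4 (4.83), CCN1 (145), ENO2 (56.8) and CCN2 (29). Replicate 1 at 96 h stood apart in CPM for HSPA8 (3377), ACSL5 (201), MYC (126), SYNE3 (7.19) and PTGES3 (707). Replicate 2 at 96 h stood apart in CPM for CDX2 (248), IGFBP3 (3.09), SLC16A3 (75.9), ITGA3 (384), AJUBA (246), FJX1 (47.9), LMNA (758), LMNB1 (206) and FOXN4 (0.698), and in percent for the share of counts in misc_RNA (1.3%) and the share of counts in snoRNA (0.0661%). Replicate 3 at 96 h stood apart in CPM for HLF (1.25), and in percent for the share of counts in snRNA (0.0369%). Replicate 4 at 96 h stood apart in CPM for ZNF75CP (1.01), SLC2A3 (53.7) and ABCG2 (13.9).

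The change at 96 h differed between a tagged line and the parental line in 65 of 426 tests on the named genes, for 50 genes, by edgeR's test of the difference at an adjusted p under 0.05. The values below are the tagged line's log2 change minus the parental one, and the same parental libraries enter all 3 lines' tests. For LAC the difference was positive for ANKRD1 (1.14), HERC2P2 (4.67), ZNF75CP (2.72), DNAJB6P7 (3.1), IGF2BP2-AS1 (2.54), ARL4AP4 (3.18), SAMD4A-AS1 (2.47), ENPP7P12 (2.22), NEAT1 (1.57), DUSP5 (0.76), IL32 (2.79), CX3CL1 (1.09), HMGCS1 (0.96), HSD17B7 (0.88), ACSS2 (0.62), ASNS (1.57), DDIT4 (1.15), CDKN1A (0.84), KRT81 (1.65), SYNE3 (1.06) and NQO1 (0.72). In LAC it was negative for CYP1A1 (-1.79), EGR1 (-0.94), ACTB (-0.7), AHNAK (-0.74), CDX2 (-1.22), NUAK2 (-1.12), CCN1 (-1.13), EGR3 (-1.5), FOS (-0.82), MYC (-0.77), ABCB1 (-1.25), BAMBI (-0.83), SLC7A5 (-0.83), CCN2 (-0.98), LATS2 (-0.74), FJX1 (-1.18), ARHGEF17 (-0.78), PTPN14 (-0.61) and LMNB2 (-1.09). For LB1 the difference was positive for ZNF75CP (4.22), IGF2BP2-AS1 (2.71), SAMD4A-AS1 (2.44), NEAT1 (1.57), TGM2 (2.55) and FOSB (1.8). In LB1 it was negative for CYP1B1 (-0.75), UGDH (-0.99), SLC26A2 (-0.98), AGR2 (-1.09), TMEM43 (-0.81), PER2 (-0.75), ALDH3A1 (-0.83), NQO1 (-1.01), SLC7A5 (-1.3), CCN2 (-0.93), LATS2 (-0.76) and TGFB2 (-0.85). For LB2 the difference was positive for ANKRD1 (1.18), NEAT1 (1.29), TGM2 (2.19), ACSS2 (0.83) and CDKN1A (1.11). In LB2 it was negative for CCN1 (-0.98) and CCN2 (-1.26).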

How the results depend on the processing

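Of the 118 named genes called at 96 h, 65 kept their call in every alternative that gave a value, 17 lost it in 1 to 3 of them, 36 in 4 or more, and none changed sign. Of the 29 named genes not called, 12 were called in some alternative. The counts moved by more than 1.5 times as follows. With limma voom and sample quality weights the calls numbered 3345 at 96 h against 0 h, 4943 at 16 h against 0 h, 567 at 96 h against 16 h, 5483, 1619 and 2690 for LAC, LB1 and LB2, and 3055, 1128 and 556 for the differences of LAC, LB1 and LB2 from the parental change. Without libraries under 5000000 counts they were 2613 at 96 h against 0 h, 171 at 96 h against 16 h, 1103 in LB1, 1214 in LB2, and 370 and 128 for the differences of LB1 and LB2. DESeq2 gave 117 at 96 h against 16 h, 1265 in LB2, and 489 and 216 for those differences. Scaling by library size only gave 365 and 169 for them. No low-count filter gave 95 at 96 h against 16 h and 164 for the LB2 difference. Calls of at least 2-fold numbered 549. The share of higher calls was 37.4% with RLE scaling, 30.9% with library size only, 61.1% with no filter, 37.7% with DESeq2, 62.4% without libraries under 5000000 counts and 19.7% among calls of at least 2-fold. The causes of these moves were not tested, though a 2-fold limit can only lower a count of calls. With protein-coding genes only 1356 were called.

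Leaving out 1 replicate at a time gave 1004 to 1748 calls at 96 h against 0 h, with a higher share of 47.9 to 63.8%, 959 to 2389 at 16 h against 0 h, 30 to 52 at 96 h against 16 h, 1755 to 4632 for LAC, 342 to 597 for LB1, 336 to 820 for LB2, and 724 to 2426, 41 to 356 and 2 to 72 for the differences of LAC, LB1 and LB2. At 96 h against 0 h the count moved by more than 1.5 times without replicate 1 (1051) or replicate 4 (1004) at 0 h. At 16 h against 0 h it did so without replicate 1 (1036), 3 (1278) or 4 (1053) at 0 h and without replicate 1 (1054) or 4 (959) at 16 h. At 96 h against 16 h it did so without replicate 1 (31), 2 (30) or 4 (36) at 16 h and without replicate 3 (31) or 4 (35) at 96 h. In LAC this held for replicate 1 at 0 h (1755) and replicate 2 at 96 h (2036), in LB1 for replicates 1 (452), 2 (399) and 3 (342) at 0 h and replicate 2 at 96 h (400), and in LB2 for replicates 1 (486), 2 (430) and 3 (336) at 96 h. The LAC difference moved without replicate 4 at 0 h (904) or 2 at 96 h (724) of the parental line, and without replicate 2 at 0 h (2426) or replicates 2 (740) and 3 (799) at 96 h of LAC. The LB1 difference moved without parental replicates 1 (91) and 4 (90) at 0 h and 2 (61) at 96 h, and without LB1 replicates 2 (53) and 3 (41) at 0 h and 1 (138), 2 (46) and 4 (356) at 96 h. The LB2 difference moved without parental replicates 1 (41), 2 (32), 3 (34) and 4 (25) at 0 h and 2 (2) and 3 (31) at 96 h, and without LB2 replicates 1 (38), 2 (2) and 4 (48) at 0 h and 1 (6), 2 (29) and 3 (18) at 96 h.

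With the replicate number as a block and the compared groups alone, 1422 genes were called with a higher share of 47.5%, against 2417 for those groups without the replicate block. Correlations of the deviations of libraries with the same number were -0.151, -0.57, -0.029 and 0.0653. Those of libraries with different numbers ran from -0.318 to 0.534. With 4 libraries a group, these values cannot tell whether wells of the same number were handled together. Depth limits genes under 0.796 CPM, where a count of 0 in the shallowest library cannot be told from that level.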

Other observations

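The genes called in the same direction at 96 h in the parental line and in all 3 tagged lines, each against its own 0 h libraries, hold further named genes, chosen here after their values were seen and given as log2 fold changes in the order parental, LAC, LB1 and LB2. Of the 42 called higher, 6 are given here. MYB, a transcription factor of intestinal progenitors, changed by 1, 1.26, 0.77 and 1.15. EHF, an epithelial ETS factor, changed by 0.62, 1.13, 1.39 and 1.03, and EDAR, the ectodysplasin receptor, by 0.85, 2.09, 2.06 and 1.1. MUC20, a membrane mucin, changed by 1.02, 0.85, 1.09 and 1.6. TXNIP, which binds thioredoxin and limits glucose uptake, changed by 0.92, 0.75, 0.99 and 0.82, and BCL2L11, the death-promoting protein BIM, by 0.61, 0.62, 0.71 and 0.59.

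Of the 49 called lower, 7 are given here. CAVIN1, which shapes caveolae, changed by -0.77, -2.17, -1.81 and -1.21. PALLD, an actin-bundling protein, changed by -0.7, -0.78, -0.76 and -0.8, PLS3, plastin 3, by -0.44, -0.51, -0.94 and -0.74, and TMSB4X, which sequesters actin monomers, by -0.77, -0.38, -0.55 and -0.9. The small GTPases RHOC and RRAS changed by -0.79, -0.48, -0.86 and -0.75 and by -0.83, -0.73, -0.85 and -0.99. CPA4, a secreted carboxypeptidase, changed by -1.66, -2.24, -1.14 and -1.87.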
